A study of Homo sapiens with 8 samples.

Results

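Interferon-stimulated genes, including those named in work on viral mimicry, were followed across drug treatments of 2 human chronic myeloid leukaemia lines. They were taken by name from a list of 42 genes. A named probe set was found for 41 of them, out of 17687 genes with a named probe set on the array, and each of the 41 had 1 probe set. STAT2 had no named probe set. RNA of K562 and KBM5 cells was measured on 8 expression arrays, 1 for each of 4 treatments in each line. Both lines came from the blast crisis of this disease and carry BCR-ABL1, the fused kinase that imatinib (IM) blocks. K562 is also known to lack the type I interferon gene cluster beside CDKN2A. The series title asks about the combination of imatinib and OR21 (OR-2100), which it calls a demethylating agent.

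Control cells of each line received no drug. The OR21 cells received 100 nM OR21 for 3 days, the IM cells 1000 nM IM, with RNA taken 24 hours after exposure, and the combination cells OR21 first and then IM. The OR21 dose of the combination is missing from its label and was read from the treatment protocol. No vehicle is named for the controls. It is not stated whether control and OR21 cells were harvested at the same time as the IM cells.

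Interferon-stimulated genes are a broad antiviral programme. Type I interferon binds IFNAR1 and IFNAR2, the kinases JAK1 and TYK2 are activated, and the factor ISGF3, which holds STAT2 and IRF9, binds the interferon-stimulated response element (ISRE). Interferon gamma instead acts at the gamma-activated site (GAS). Viral mimicry is the name for a known response to DNA demethylation, in which endogenous retroelements are transcribed into double-stranded RNA, the sensors MDA5 (gene IFIH1) and RIG-I (gene RIGI) signal through MAVS, and interferon-stimulated genes are induced.

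Each line and treatment had 1 array, so p-values cover only the spread among these arrays and no repeats of a condition. That spread may be technical, and precision is limited by how few arrays there are. Within a line it also holds any departure of the drugs from adding on the log2 scale. Over both lines it also holds any difference of a drug effect between the lines. Values are intensities of the deposited table, whose scale is not stated. They were taken as linear, being positive with a long right tail. Comparisons were made on log2(intensity) with limma over all 17687 genes. Within a line each drug was seen in 2 array pairs, with and without the other drug, and these pairs served as repeats. Comparisons over both lines used the lines as repeats. Calls are genes with an adjusted p under 0.05, and a value after ± is the standard error of the model. Background was set on each array at the 95th percentile of its 612 negative controls. It lay between 161 and 186 on the K562 arrays and between 189 and 263 on the KBM5 arrays, and between 5874 and 7083 genes were above it. A fold is given as "at least" where 1 side of a comparison was at background, and none is given where both sides were. A size is not exact, and an "at least" fold is not a strict bound, where a side had arrays both above and at background.

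A large part of the interferon programme was at background in untreated and treated cells of both lines, as was a large part of all genes. At least 1 array of the line was above background for 42.9% of all genes in K562 and 41.4% in KBM5. A reading at background does not show that a gene is silent. Of the 41 genes, 22 were at background on all 8 arrays, with intensities from 7.08 to 188. Among them were ISG15, the ubiquitin-like protein that is conjugated by HERC5, the RNA binders IFIT1, IFIT2, IFIT3 and IFIT5, the oligoadenylate synthetases OAS1, OAS2, OAS3 and OASL, the GTPases MX1 and GBP1, and IFI27, IFI44, IFI44L and RSAD2. ISG15 read 58.0, 41.8, 58.2 and 65.6 in K562 (control, OR21, IM and combination, the order used throughout) and 60.8, 56.3, 56.5 and 57.6 in KBM5. IFIT1 read 11.4, 15.7, 15.0 and 31.3 in K562 and 12.4, 9.83, 13.6 and 9.17 in KBM5. No treatment brought either gene to the background level of its array. RIGI, DHX58, IRF7, ISG20, TRIM22, HERC5 and LGALS3BP were also at background on all 8 arrays.

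The programme was more visible in KBM5. At least 1 of the 4 arrays was above background for 7 of 41 genes in K562 (17.1%, against 42.9% of all genes) and for 19 of 41 in KBM5 (46.3%, against 41.4%). All 7 genes seen in K562 were also seen in KBM5. The number above background went from 5 (control) through 5 and 6 to 7 (combination) in K562, and from 8 through 10 and 13 to 16 in KBM5. Of all genes, 7061, 7083, 6662 and 6762 were above background in K562 and 5874, 6668, 6091 and 6637 (33.2%, 37.7%, 34.4% and 37.5%) in KBM5, where the control array had the highest background. The genes above background on all 8 arrays were ADAR, PARP12 and PARP14. The heat map of intensity against background shows this difference between lines.

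**Figure D1:**
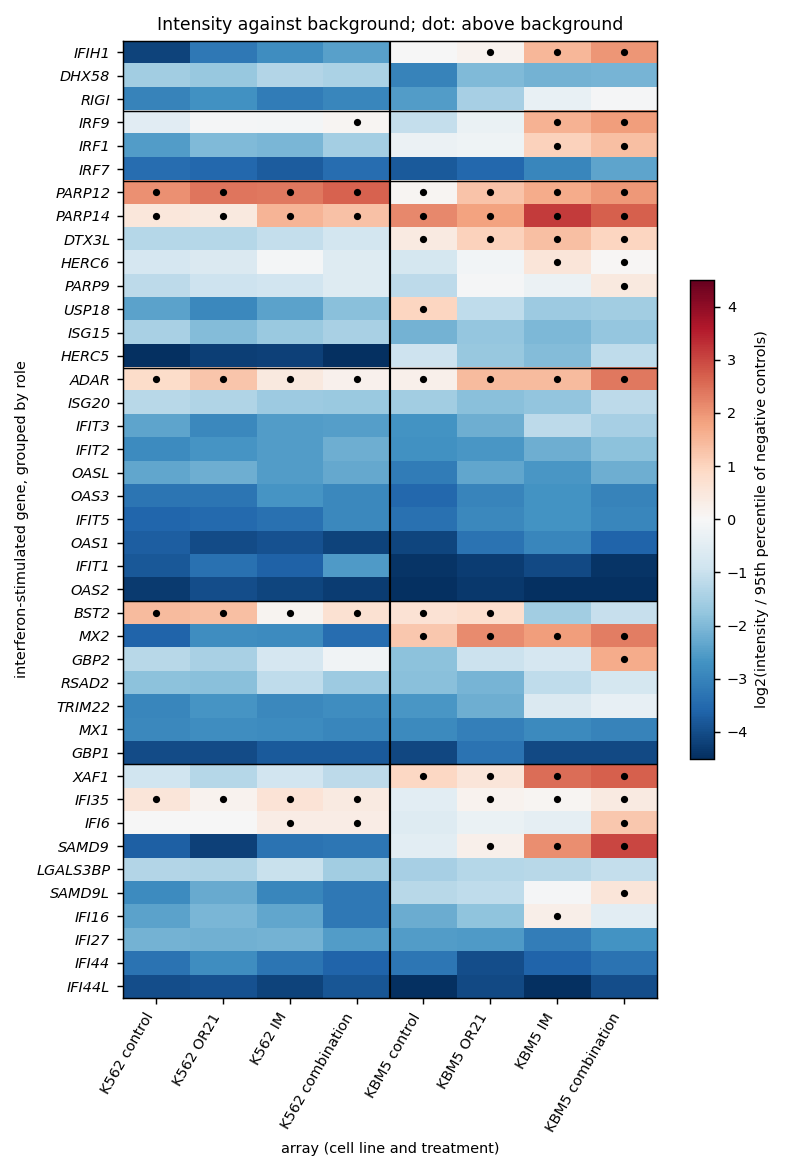
Heat map of log2(intensity / background) for the 41 genes (rows, grouped by role) on the 8 arrays (columns), where background is the 95th percentile of the negative controls of that array and a dot marks a value above it. In K562 between 5 and 7 genes carry a dot on an array and in KBM5 between 8 and 16, while the ISG15, IFIT, OAS and MX1 rows stay blue throughout.

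Promoter sequences are shown for 6 genes whose values the results turn on, 4 that changed with IM and ISG15 and IFIT1, which stayed at background. They are the 250 bases before the RefSeq start site on GRCh38.p14, read 5′ to 3′ on the strand of the gene, and capitals mark matches, on either strand, to an ISRE spelled as GAAA, then NN (any bases), then GAAA. In IRF9, which has no such match, capitals mark a match to the GAS letters TTCNNNGAA. IRF9 lies at chr14:24161015-24161264 (+), IFIH1 at chr2:162318685-162318934 (-), SAMD9 at chr7:93117980-93118229 (-), BST2 at chr19:17405631-17405880 (-), ISG15 at chr1:1013247-1013496 (+) and IFIT1 at chr10:89392373-89392622 (+).
IRF9: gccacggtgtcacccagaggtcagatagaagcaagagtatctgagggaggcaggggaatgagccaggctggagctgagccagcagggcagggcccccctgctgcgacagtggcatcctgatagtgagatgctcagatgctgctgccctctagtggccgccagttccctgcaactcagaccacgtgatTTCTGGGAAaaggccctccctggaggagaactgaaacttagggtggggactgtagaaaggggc
IFIH1: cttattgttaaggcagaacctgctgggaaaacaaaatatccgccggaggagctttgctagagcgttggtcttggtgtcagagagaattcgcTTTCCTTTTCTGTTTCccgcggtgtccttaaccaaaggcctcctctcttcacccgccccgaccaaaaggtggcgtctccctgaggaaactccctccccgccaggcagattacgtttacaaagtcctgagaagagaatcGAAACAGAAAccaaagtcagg
SAMD9: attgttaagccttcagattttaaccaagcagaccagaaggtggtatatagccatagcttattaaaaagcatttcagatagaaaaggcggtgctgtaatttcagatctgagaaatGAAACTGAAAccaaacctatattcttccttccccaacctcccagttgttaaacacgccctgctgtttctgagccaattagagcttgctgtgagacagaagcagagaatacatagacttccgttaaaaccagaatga
BST2: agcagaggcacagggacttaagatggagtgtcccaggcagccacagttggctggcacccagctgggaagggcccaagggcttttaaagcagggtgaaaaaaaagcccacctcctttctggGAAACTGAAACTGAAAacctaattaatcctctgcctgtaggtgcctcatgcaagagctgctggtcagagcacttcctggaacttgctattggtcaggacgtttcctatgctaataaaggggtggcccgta
ISG15: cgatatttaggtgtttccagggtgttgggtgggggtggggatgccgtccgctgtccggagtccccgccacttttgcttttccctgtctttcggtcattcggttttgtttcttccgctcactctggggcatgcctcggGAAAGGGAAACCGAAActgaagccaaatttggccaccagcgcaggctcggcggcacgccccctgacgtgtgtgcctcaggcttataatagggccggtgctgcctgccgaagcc
IFIT1: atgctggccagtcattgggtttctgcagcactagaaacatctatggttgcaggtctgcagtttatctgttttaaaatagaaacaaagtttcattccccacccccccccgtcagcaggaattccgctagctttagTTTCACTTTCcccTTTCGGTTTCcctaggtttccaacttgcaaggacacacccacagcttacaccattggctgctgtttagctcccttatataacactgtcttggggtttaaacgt

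A match is a description of letters, not a shown binding site. In IFIH1 the window holds 3 ISRE matches, the first 159 and the last 21 bases before the start, and the first pair overlaps. SAMD9 has 1, 136 bases before the start. BST2, ISG15 and IFIT1 hold 2 each, and in BST2 a GAS match 136 bases before the start overlaps the first of them. Over the window from 250 bases before to 50 after the start, 32 of the 41 genes had a promoter in the RefSeq table, and 22 of these (68.8%) held an ISRE match, against 4.13% of 14250 array genes with a promoter there. A GAS match was found in 8 (25%) against 9.02%. The median number of CpG dinucleotides in the window was 10.5, against 25 over the array genes. An ISRE match was present in 14 of the 16 promoters of genes at background on all arrays and in 8 of the 16 of genes seen above it. Of the genes that rose with IM in KBM5, 6 of 13 with a promoter sequence held one, against 15 of 18 of the genes not called there.

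Over the 4 treatments together, 18 of 41 genes were higher in KBM5 than in K562 and 1 was lower, against 15% and 17% of all genes (32% in either direction). MX2, a GTPase that blocks the nuclear entry of viral genomes, read 13.3, 23.6, 26.0 and 17.0 in K562 and 614, 823, 845 and 955 in KBM5, at least 4.63-fold higher (adjusted p = 7.81e-06). Every KBM5 array was above background for MX2 and no K562 array was. XAF1, a pro-apoptotic protein, was at least 4.01-fold higher (adjusted p = 0.000733), and SAMD9, an antiviral restriction factor, at least 2.91-fold (adjusted p = 0.000143). DTX3L, the ubiquitin ligase that pairs with PARP9, read 66.4 to 102 in K562 and 351 to 586 in KBM5, at least 2.43-fold higher (adjusted p = 0.000194). PARP9 itself was called as higher (adjusted p = 0.00603) but was above background on 1 KBM5 array alone. IFIH1 was at least 2.36-fold higher (adjusted p = 3.5e-05) and the factor IRF1 at least 1.75-fold (adjusted p = 0.000258). SAMD9 and IFIH1 were above background on 3 of the 4 KBM5 arrays and IRF1 on 2, so the folds of these genes are not strict bounds.

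PARP14, a mono-ADP-ribosyltransferase, was above background on every array of both lines, with 228, 219, 540 and 451 in K562 and 1166, 666, 2037 and 1265 in KBM5. Its lowest KBM5 value exceeded its highest K562 value, a log2 difference of 1.84 ± 0.21 (adjusted p = 0.000707). PARP12, a related enzyme, ran the other way, with 668, 871, 967 and 1158 in K562 and 279, 457, 725 and 750 in KBM5, a log2 difference of -0.81 ± 0.20 (adjusted p = 0.0215). These ranges overlap. Of the 18 genes higher in KBM5, HERC5, IFIT3, IFIT5, OAS1, RIGI and TRIM22 were at background in both lines. For PARP9, SAMD9L, IFI16 and USP18, which were above it on 1 KBM5 array each, no fold is given. With each array left out in turn, 11 of the 19 calls held every time. For this comparison, leaving out the array of a treatment in either line gives the same result. The 8 fits thus hold 1 distinct result for each of the 4 treatments. BST2 (-1.14) and ADAR (1.31) were called in addition without the control array of either line. PARP12 was called only without the IM array of either line (log2 difference -0.94 to -0.66 over the 8 fits). HERC6 was lost without either IM array (0.70 to 0.80 over the 8 fits).

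IM raised a part of the programme in KBM5. There, 16 of 41 genes rose and 2 fell, against 10.8% and 10.6% of all genes (21.4% in either direction), and the median log2 difference was 0.38 over the 41 genes and 0.03 over all genes. At least 2-fold in both pairs were 8 genes upward (4.99% of all genes) and 1 downward (6.2%). Both arrays with IM lay above both without it for 22 genes (27.1% of all genes) and below for 5 (23.9%). In a bulk culture, more cells with a transcript and more transcript per cell cannot be told apart.

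Among the transcription factors, all 3 measured genes rose in KBM5. IRF9, the DNA-binding part of ISGF3, read 125 and 153 without IM and 683 and 712 with it, at least 3.13-fold higher (adjusted p = 8.51e-05). Both values with IM were above background and both without it were not. IRF1, an interferon-gamma-induced activator, went from 218 and 164 to 465 and 501, at least 2.16-fold higher (adjusted p = 0.00252). IRF7, which amplifies type I interferon production, was called (adjusted p = 0.0241) at 19.2, 16.5, 30.2 and 37.5, all at background.

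Both sensors that trigger MAVS were called. IFIH1 went from 261 and 213 to 638 and 772 in KBM5, a log2 difference of 1.57 ± 0.26 (adjusted p = 0.00174), with 1 of the 2 arrays without IM above background. RIGI went from 45.8 and 67.1 to 180 and 188 (adjusted p = 0.000579), all at background. DHX58, which encodes the regulatory sensor LGP2, read 32.7 to 52.4 and was not called.

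**Figure D2:**
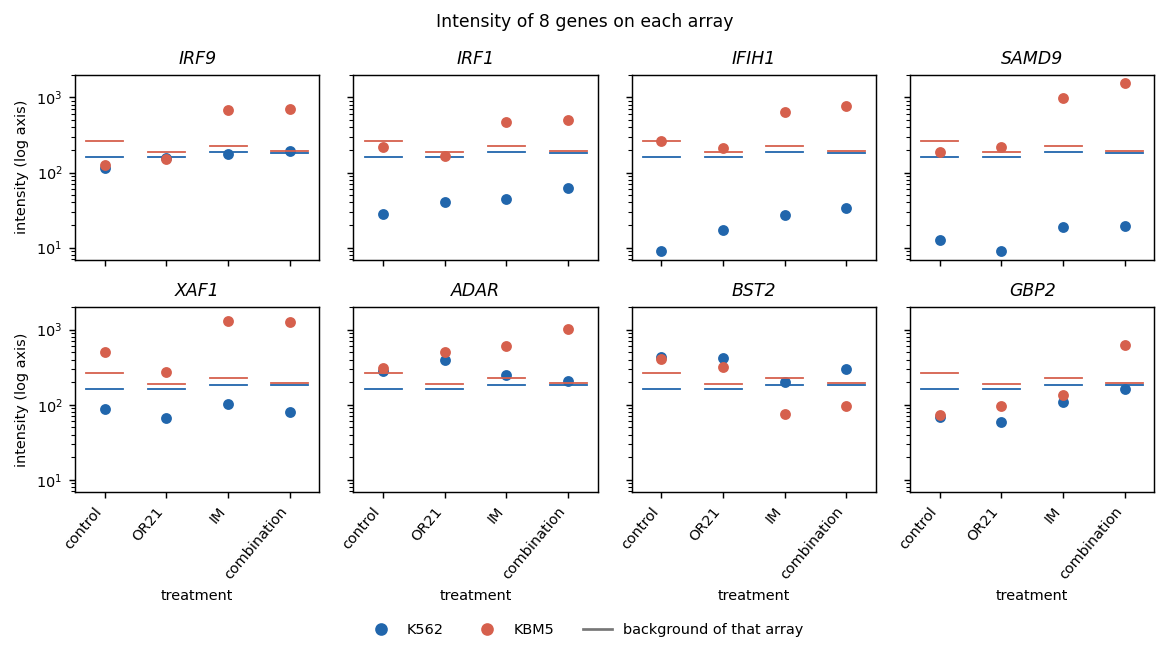
Intensity (log axis) of 8 genes on each of the 8 arrays, with K562 in blue and KBM5 in red and a horizontal line at the background of each array. In KBM5 IRF9, IRF1, IFIH1, SAMD9, XAF1 and ADAR are higher in both arrays with IM than in both without it, BST2 is lower, and GBP2 passes background in the combination alone.

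Among the 41 genes, SAMD9 had the largest fitted log2 rise with IM in KBM5. It went from 190 and 222 to 972 and 1558 in KBM5, a log2 difference of 2.58 ± 0.25 (adjusted p = 6.98e-05) whose size is not exact, since the control was at background. Its neighbour SAMD9L went from 112 and 85.0 to 222 and 283 (adjusted p = 0.00671), and only the 283 of the combination array passed background. XAF1 was above background on all 4 KBM5 arrays and went from 502 and 275 to 1310 and 1258, a log2 difference of 1.79 ± 0.26 (adjusted p = 0.000758). For both SAMD9 and XAF1 the arrays with and without IM do not overlap. IFI16, a nuclear DNA sensor, read 56.5 and 53.5 without IM and 276 and 139 with it (adjusted p = 0.00287), and only the 276 of the IM array passed background. IFI35 (192 to 259) and IFI6 (155 to 450) were seen above background but not called.

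Among the enzymes of RNA editing and ADP-ribosylation, ADAR, PARP12 and PARP14 rose. ADAR, which edits adenosine to inosine in double-stranded RNA, read 308, 507, 609 and 1011, a log2 difference for IM of 0.99 ± 0.26 (adjusted p = 0.0187). PARP12 rose by 1.05 ± 0.25 (adjusted p = 0.0132) and PARP14 by 0.86 ± 0.23 (adjusted p = 0.0222). The arrays of PARP14 with and without IM lie close together, at 1166 for the higher one without it and 1265 for the lower one with it. PARP9 (116 to 265), DTX3L (351 to 586) and HERC6 (152 to 337) were not called.

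Membrane and capsid restriction factors went both ways. BST2, or tetherin, which holds budding virions at the cell surface, fell from 412 and 318 to 76.4 and 94.8, at least 1.72-fold lower (adjusted p = 0.000357), and both arrays with IM were at background. GBP2, an interferon-induced GTPase, read 72.6, 95.5, 136 and 626, higher with IM (adjusted p = 0.00669), and was above background in the combination alone. TRIM22 went from 43.3 and 41.2 to 147 and 151 (adjusted p = 0.000325), all at background. MX2 was bright on all 4 arrays and was not called for IM. USP18, the protease that removes ISG15 and restrains the interferon receptor, read 518, 85.8, 73.5 and 65.9. Its call as lower (adjusted p = 0.0333) rested on the control array, the only one above background, and the pair without that array differed by -0.38 on the log2 scale.

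Among the 16 genes that rose, IFIT3, IRF7, RIGI, RSAD2 and TRIM22 were at background on all KBM5 arrays. Each array was left out in turn. The 4 fits without a K562 array keep the KBM5 differences as they are, and each of the 4 without a KBM5 array rests on 1 remaining pair. The residual spread of those 4 comes from K562 alone and is moderated by limma over all genes. The calls for BST2, IFI16, IFIH1, IRF1, IRF9, RIGI, SAMD9, TRIM22 and XAF1 held in all 8 fits. ADAR and PARP14 were lost without any 1 of the KBM5 arrays, at differences of 0.99 to 1.00 and 0.80 to 0.92. GBP2 (0.90), SAMD9L (0.99), IRF7 and RSAD2 were lost without the OR21 or the combination array. PARP12 (0.71), USP18 and IFIT3 were lost without the control or the IM array. In return IFI6 (1.54) was called without the control or the IM array, and HERC6 (1.15) and OAS1 as higher and HERC5 as lower without the OR21 or the combination array.

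**Figure D3:**
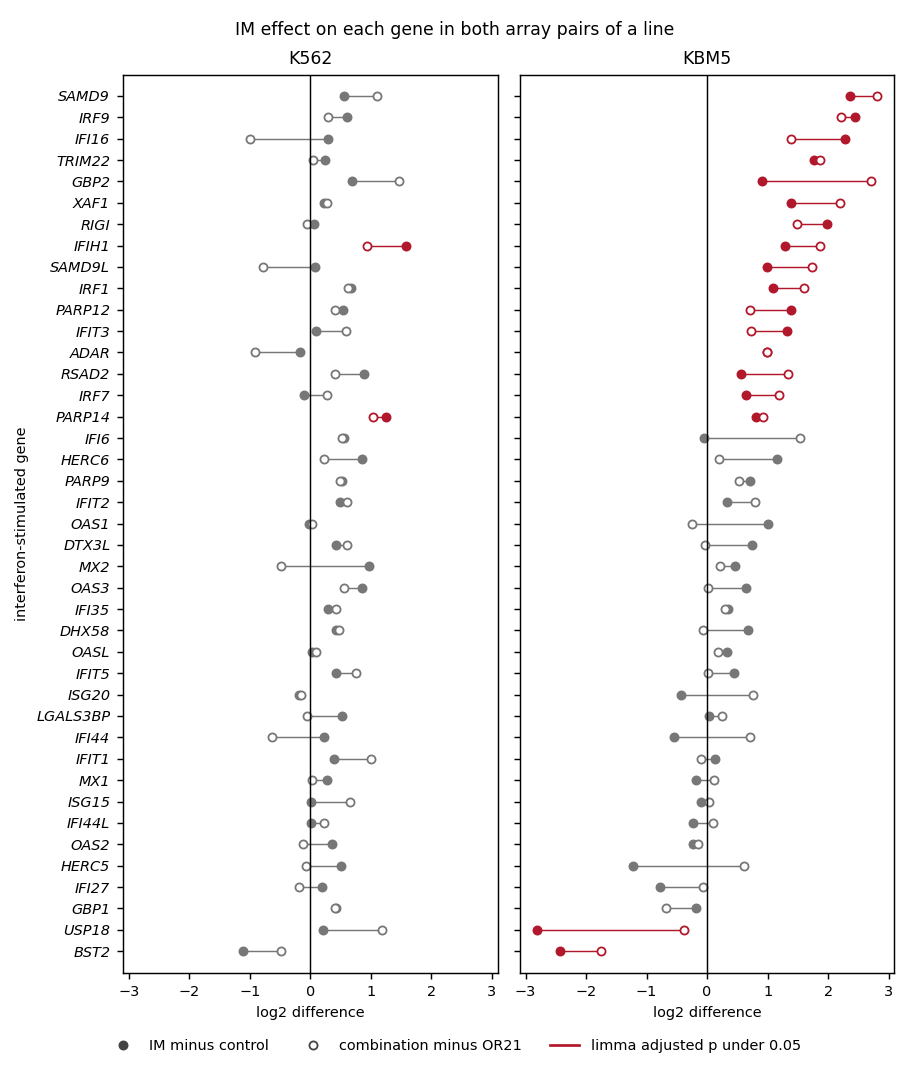
Log2 difference with IM for each of the 41 genes in K562 (left) and KBM5 (right), with IM minus control as filled points, combination minus OR21 as open points, and red for genes called by limma at an adjusted p under 0.05, including those at background. In KBM5 16 genes are red on the right of 0 and BST2 and USP18 on the left, while in K562 only IFIH1 and PARP14 are red.

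In K562, IM raised 2 of 41 genes and lowered none, against 5.34% and 8.05% of all genes (13.4% in either direction). PARP14 rose from 228 and 219 to 540 and 451, a log2 difference of 1.14 ± 0.23 (adjusted p = 0.0094), and its arrays with and without IM do not overlap. IFIH1 was called (adjusted p = 0.0112) at 8.99, 17.4, 26.9 and 33.4, all at background. Both calls were lost without any 1 of the K562 arrays, at differences of 1.04 to 1.25 for PARP14. PARP14 was also the only gene of the 41 to pass 2-fold in both pairs upward (2.52% of all genes), and none did downward (4.39%). The median log2 difference was 0.34 over the 41 genes and 0.07 over all genes, and both arrays with IM lay above both without it for 22 genes (31.3%) and below for 3 (25.7%). BST2 read 437, 414, 203 and 295, above background on every array and lower on both with IM, and was not called (log2 difference -0.80 ± 0.26). At that same difference it was called when any 1 of the KBM5 arrays was left out, as were GBP2 and SAMD9, both at background in K562. IRF9 read 114, 156, 174 and 192 and passed background in the combination alone.

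With both lines together, 4 genes rose with IM and 1 fell, against 2.75% and 4.87% of all genes (7.63% in either direction). IFIH1 (log2 difference 1.42 ± 0.24, adjusted p = 0.0219), SAMD9 (1.71 ± 0.40, adjusted p = 0.0496) and PARP14 (1.00 ± 0.21, adjusted p = 0.0362) were higher in all 4 pairs. GBP2 was higher in all 4 as well, by at least 1.04-fold (adjusted p = 0.0437), and BST2 was lower in all 4 (-1.44 ± 0.30, adjusted p = 0.0377). With 1 array left out, the call for PARP14 held in 0 of 8 fits and each of the other 4 in 1 of 8. BST2, GBP2 and SAMD9 were also lost after quantile normalization and with log2(intensity + 16), IFIH1 with the latter, and all 5 without the line in the model. The lowest and highest values were 1.16 and 1.68 for IFIH1, 1.29 and 2.12 for SAMD9, 0.83 and 1.18 for PARP14, and -1.71 and -1.18 for BST2.

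The IM effect itself differed between the lines for 8 genes, all with the higher value in KBM5, against 5.25% of all genes (4.9% with the lower value there, 10.2% in either direction). They were IRF9 (1.88 ± 0.33 on the log2 scale, adjusted p = 0.00602), SAMD9 (1.75 ± 0.36, adjusted p = 0.0121), IFI16, XAF1 (1.53 ± 0.37, adjusted p = 0.0259), SAMD9L, ADAR (1.53 ± 0.36, adjusted p = 0.0245), RIGI and TRIM22. ADAR was above background on all 8 arrays and ran 282, 389, 252 and 207 in K562, lower with IM, and 308, 507, 609 and 1011 in KBM5, higher with it. SAMD9, SAMD9L, IFI16, XAF1, RIGI and TRIM22 were at background on every K562 array, and IRF9 on 3 of them and on both KBM5 arrays without IM, so the size of these 7 differences is not exact. BST2 fell further in KBM5 by -1.29 ± 0.38, which was not called (adjusted p = 0.0604). It was called after quantile normalization (-1.49), among the brighter genes alone, with a common OR21 by IM term and without the OR21 or the combination array of KBM5 (-1.63). USP18 had the most negative difference (-2.29), which was not called but was with a common OR21 by IM term, with trend and robust moderation, and without the OR21 or the combination array of KBM5 (-3.51). Each of the 8 was lost in at least 1 fit with an array left out. IRF9 was lost only without the OR21 or the combination array of K562 (1.72 to 2.04 over the 8 fits), and SAMD9 only without the control or the IM array of K562 (1.48 to 2.03). ADAR, RIGI and TRIM22 were lost without any 1 of the K562 arrays (ADAR 1.16 to 1.90). XAF1 was lost without any K562 array and without the OR21 or the combination array of KBM5 (1.13 to 1.94). IFI16 and SAMD9L were each lost in 4 fits, and in both cases these included the fits without the OR21 or the combination array of K562.

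**Figure D4:**
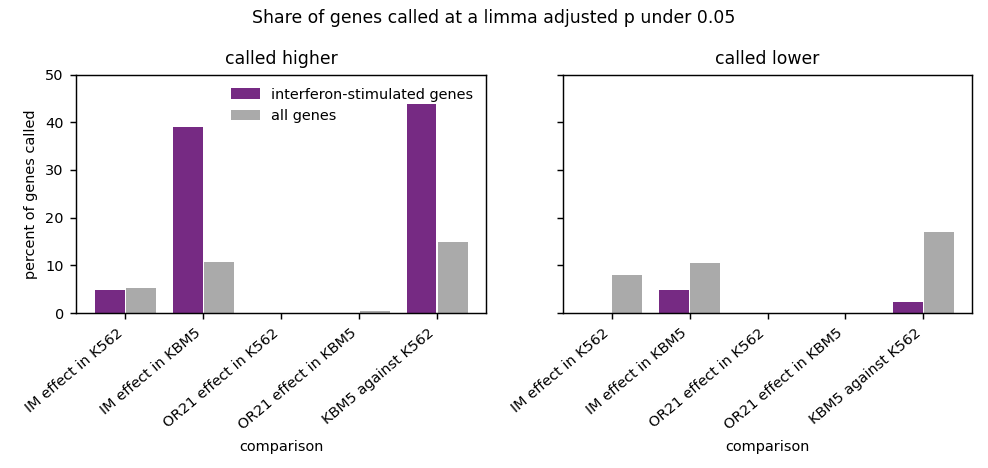
Percent of the 41 interferon-stimulated genes (purple) and of all 17687 genes (grey) called by limma at an adjusted p under 0.05, higher on the left and lower on the right, for 5 comparisons. The purple bars reach 39% for IM in KBM5, where the grey bar is at 10.8%, and 43.9% for KBM5 against K562, where it is at 15%, and none stands above 0 for OR21.

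OR21 changed none of the 41 genes past the threshold. In K562, 0 of 41 were called, against 16 of all genes (0.0905%), and 2 had an unadjusted p under 0.05 (4.88%, the same share as over all genes). These were IFIT1 and IFIH1, both at background. In KBM5, 0 of 41 were called, against 96 of all genes (0.543%, with 0.486% higher and 0.0565% lower), and 6 had an unadjusted p under 0.05 (14.6%, against 12.6% of all genes). Of those 6, ADAR had a log2 difference of 0.73 ± 0.26 (adjusted p = 0.294), with 308 and 507 without IM and 609 and 1011 with it, and PARP14 one of -0.75 ± 0.23 (adjusted p = 0.233). GBP2 had the lowest adjusted p of the 41 (0.204) and the others were MX1, PARP9 and USP18. Leaving out 1 KBM5 array gave 1 call. Without the control or the OR21 array this was GBP2 (2.20 in the remaining pair), and without the IM or the combination array it was USP18 (-2.59). No gene reached 2-fold in both pairs of either line, against 0.266% of all genes upward and 0.0226% downward in K562 and 0.786% and 0.153% in KBM5. Both arrays with OR21 lay above both without it for 5 genes in K562 (10.1% of all genes) and 2 in KBM5 (11.3%), all at background, and below for 4 in each line (12.3% and 16.4%).

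With both lines together, OR21 gave 0 calls among the 41 and 0 (0%) among all genes. An unadjusted p under 0.05 was found for 0 of the 41 and 622 of all genes (3.52%). The difference of the OR21 effect between lines was called for 0 of the 41 and 18 of all genes (0.102%, with 0.0452% higher in KBM5 and 0.0565% lower). For this difference 1 of the 41 (IFIT1) had an unadjusted p under 0.05 (2.44%, against 7.64% of all genes). In K562 the 41 genes had a median log2 difference of 0.09 with OR21, in KBM5 of -0.04, and all genes of -0.01 and -0.03. The standard errors of the single genes, 0.26 for ADAR and 0.23 for PARP14 in KBM5, set the size of change these arrays could show.

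**Figure D5:**
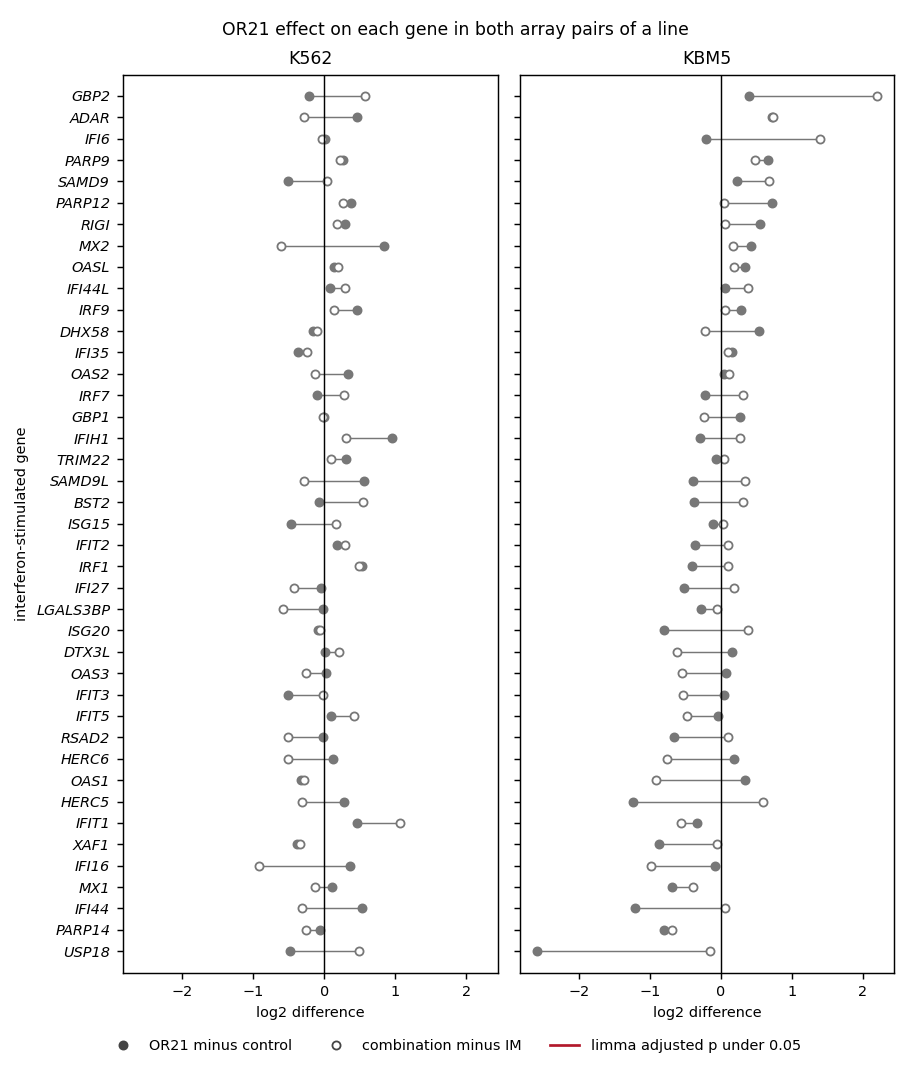
Log2 difference with OR21 for each of the 41 genes in K562 (left) and KBM5 (right), with OR21 minus control as filled points and combination minus IM as open points. No gene is red, the colour for a limma adjusted p under 0.05, and the longest lines, where the 2 pairs differ most, belong to USP18, HERC5 and GBP2 in KBM5.

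The combination was compared with control over both lines. No gene of the 41 was called, against 35 of all genes (0.198%, with 0.0622% higher and 0.136% lower), while 10 of the 41 had an unadjusted p under 0.05 (24.4%, against 15.9% of all genes). IFIH1 had the lowest adjusted p (0.0862, log2 difference 1.73 ± 0.34). The interaction of the drugs was called for 0 of the 41 and for 0 of all genes (0%). HERC6 was the only 1 of the 41 with an unadjusted p under 0.05 (2.44%), against 274 of all genes (1.55%). Single values in KBM5 stood out in the combination. GBP2 read 626 there and at most 136 on the other arrays of the line, IFI6 read 450 and at most 178, and SAMD9 read 1558 after 972 with IM alone. A single array each stands behind these values. IFI6 read 159, 160, 233 and 229 in K562.

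Upstream of the programme, all 19 measured interferon genes were at background on all 8 arrays (7.06 to 63.9), and none was called for IM or OR21 in either line. K562 cannot express the genes of the type I interferon cluster that it is known to lack, so for those genes only the KBM5 arrays are informative. The 10 measured endogenous retroviral and Gag-derived genes were also at background on all arrays (6.03 to 165), with no call for IM or OR21 in either line. ERVK13-1, the brightest of them, read 93.4, 159, 133 and 165 in K562 and 72.9, 111, 90.4 and 144 in KBM5, higher on both OR21 arrays than on the array without OR21 beside it but at background throughout. Probe sets of repeat families themselves were not analysed here.

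Of 10 measured receptor and JAK-STAT genes, 9 were above background in each line. With IM, 6 rose and none fell in KBM5, where 10.8% of all genes rose and 10.6% fell, and 2 rose and 2 fell in K562, where 5.34% rose and 8.05% fell. JAK1, the kinase shared by the type I and type II receptors, read 1158, 1024, 810 and 360 in K562 and 1053, 1109, 2821 and 3200 in KBM5, falling by 1.01 ± 0.28 (adjusted p = 0.0365) in the first and rising by 1.48 ± 0.28 (adjusted p = 0.00331) in the second. STAT3 fell by 1.51 ± 0.26 in K562 (adjusted p = 0.00395) and rose by 1.02 ± 0.26 in KBM5 (adjusted p = 0.0177). The IM effect differed between lines for JAK1, STAT3 and the receptor chain IFNAR2 (adjusted p = 0.0031, 0.00207 and 0.0116). JAK2 rose in both lines, by 1.25 ± 0.24 in K562 (adjusted p = 0.00674) and at least 1.77-fold in KBM5 (adjusted p = 0.000331).

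Of 19 genes of nucleic acid sensing and its adaptors, 6 rose and 1 fell with IM in KBM5 (10.8% and 10.6% of all genes), and none rose and 2 fell in K562 (5.34% and 8.05%). STING1, the adaptor of DNA sensing, read 3465 and 2973 without IM and 12707 and 8059 with it in KBM5, a log2 difference of 1.66 ± 0.25 (adjusted p = 0.000875). MYD88, the adaptor of toll-like receptors, rose by 2.01 ± 0.24 (adjusted p = 0.000218) and MAVS, the adaptor of IFIH1 and RIGI, by 1.10 ± 0.23 (adjusted p = 0.00675). TRAF3, a ubiquitin ligase downstream of MAVS, fell in both lines. CGAS, the cytosolic DNA sensor, was at background in K562 (8.11 to 15.0) and read 718 to 1790 in KBM5.

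Among 47 other interferon-stimulated genes, 11 rose and 3 fell with IM in KBM5 (10.8% and 10.6% of all genes), and 6 rose and 8 fell in K562 (5.34% and 8.05%). SAMHD1, which depletes nucleotides needed by retroviruses, went from 1627 and 957 to 17966 and 13151 in KBM5, a log2 difference of 3.62 ± 0.24 (adjusted p = 9.58e-06), and read 318 to 381 in K562. ZC3HAV1, an antiviral zinc-finger protein, rose by 1.76 ± 0.25 in KBM5 (adjusted p = 0.000631) and 0.96 ± 0.25 in K562 (adjusted p = 0.0295). In K562 LY6E fell by 2.09 ± 0.24 (adjusted p = 0.000404), and the membrane proteins IFITM1, IFITM2 and IFITM3 fell as well. IFITM3 was the only gene of these 47 called for OR21 in either line. It read 1785 and 3333 without OR21 and 6523 and 8272 with it in KBM5, a rise of 1.59 ± 0.25 (adjusted p = 0.0247).

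Of 17 genes listed as restraining interferon signalling, 3 rose and 5 fell with IM in KBM5 (10.8% and 10.6% of all genes), and none rose and 4 fell in K562 (5.34% and 8.05%). Both counts of falls include ISG20L2, which is not known to restrain interferon signalling. CISH and SOCS2, feedback inhibitors of cytokine receptors, fell in both lines. The 3 that rose in KBM5 were TRIM38, PIAS1 and PTPN6. There TRIM38 read 186 and 300 without IM, the control at background, and 1957 and 2285 with it. This was a log2 difference of 3.16 ± 0.25 (adjusted p = 2.06e-05). In K562 CISH read 1291 and 1001 without IM and 72.3 and 94.9 with it, at least 6.18-fold lower (adjusted p = 2.94e-05). Of 17 genes that silence retroelements, 3 rose and 6 fell with IM in KBM5 and 1 rose and 1 fell in K562, beside the same shares of all genes. UHRF1, which brings DNMT1 to newly made DNA, went from 7876 and 5612 to 329 and 622 in KBM5, a fall of 3.88 ± 0.32 on the log2 scale (adjusted p = 2.68e-05). DNMT1, the maintenance methyltransferase, fell by 2.00 ± 0.23 there (adjusted p = 0.000176), and ATF7IP, a partner of the methyltransferase SETDB1, rose in both lines. No gene of the last 4 lists other than IFITM3 was called for OR21.

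Lineage markers moved with the same drug. In KBM5, 7 of 8 myeloid markers were above background on at least 1 array and CD34 on none, and their summed intensity read 66467, 133007, 346580 and 321763. With IM, 5 of the 8 rose there and MPO fell, against 10.8% and 10.6% of all genes. Among those that rose was LYZ, the lysozyme of granulocytes and monocytes (12342, 31218, 254951 and 185905), which made up most of the sum with IM. MPO was at background on the control and IM arrays. In K562 the sum of the 8 myeloid markers lay between 1696 and 2989. All 7 erythroid markers were above background in K562, with sums of 169292, 523318, 1118140 and 1098250, and 1 of 7 (TFRC) in KBM5. Of 5 lymphoid markers CD3E, CD8A and MS4A1 were at background on all arrays, CD79A was above it in KBM5 alone, and CD3D read 817 and 459 in K562 without IM and was at background with it, at least 3.33-fold lower (adjusted p = 3.2e-05). The summed intensity of the lymphoid markers lay between 251 and 967 in K562 and between 284 and 434 in KBM5. Of 3 plasmacytoid dendritic markers CLEC4C was at background on all arrays, IL3RA was above it on 1, and TCF4 was above it on all 8, rising with IM in K562 by 1.49 ± 0.24 (adjusted p = 0.00283) and falling in KBM5 by 0.77 ± 0.24 (adjusted p = 0.0459). The sum of these 3 lay between 1071 and 3531 in K562 and between 459 and 633 in KBM5. The part of these marker changes in the changes of the interferon-stimulated genes was not tested.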

How the data were processed

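The authors deposited 1 intensity per probe set and array, taken here as linear. Their software, summarization and normalization are not given in sources used here. RNA was labelled with biotin, per the labels. Gene names came from the supplied probe annotation, and for genes with several probe sets the brightest was used. Log2(intensity) was fitted in limma 3.58.1 (R 4.3.3) over all 17687 genes without further normalization. The model of both lines had line and treatment terms (3 residual and 3.765 prior degrees of freedom). The model per line had a baseline, an OR21 term and an IM term for each line (2 residual and 8.309 prior). P-values were adjusted by Benjamini-Hochberg over all genes of a contrast. The procedure was also run on simulated data with independent noise and additive effects. That run could not check departures from additivity or effects of single arrays.

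An "at least" fold sets the mean of the brighter side against, on each array of the dimmer side, the higher of its background and its own value. Arrays of the brighter side enter at their own value even where that is at background. The genes and lists were chosen with earlier results of these data known. Genes named with values were those called in a contrast, above background with a 2-fold difference in both pairs, or described for their role, and up to 4 called genes of each other list. Alternatives tried were the brighter genes alone, quantile normalization, moderation with a trend and robust fitting, the mean of probe sets, log2(intensity + 16), each array left out, another model, and the 90th and 99th percentile of the negative controls.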

Additional observations from a re-analysis of the deposited data

Results flagged for a closer look

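The effect of IM differed between the lines by a test of the difference itself (limma, 2 array pairs in each line) for 8 of the 41 interferon-stimulated genes. All 8 had the higher effect in KBM5, where 5.25% of all genes were called in that direction and 4.9% in the other. Given as the log2 effect in KBM5 minus that in K562, the differences were 2.19 for IFI16, 1.88 for IRF9, 1.75 for SAMD9, 1.73 for RIGI, 1.71 for SAMD9L, 1.68 for TRIM22, 1.53 for XAF1 and 1.53 for ADAR. RIGI and TRIM22 were at background on all 8 arrays, IFI16, SAMD9, SAMD9L and XAF1 on the 4 K562 arrays, and IRF9 on 3 K562 arrays and both KBM5 arrays without IM, so the sizes of these 7 are not exact. ADAR was above background on all 8 arrays. How these calls fared with an array left out is given above.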

How the results depend on the processing

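No paired analysis was possible because all groups carry the one replicate number 1, which cannot serve as a block. Treatments were compared within lines by the line terms of the models. The cause of the changes below was not tested unless the setting itself shows it. Among the 41 genes, 5 were called for IM in both lines, 3 after quantile normalization, 2 with log2(intensity + 16) and 0 without the line in the model. For IM in K562 the 2 calls became 4 among the brighter genes alone, 1 with log2(intensity + 16) and 5 with a common OR21 by IM term. Testing the brighter genes alone leaves 17 of the 41 in the test and gave 10 calls in place of 19 for KBM5 against K562, 11 in place of 18 for IM in KBM5 and 5 in place of 8 for the difference of the IM effect. With each array left out, the calls lay between 0 and 2 for IM in both lines, 13 and 19 for KBM5 against K562, 0 and 5 for IM in K562, 14 and 18 for IM in KBM5, 1 and 9 for the difference of the IM effect, and 0 and 1 for OR21 in KBM5. They were 0 in every such fit for OR21 in K562 and in both lines, the combination against control, the interaction and the difference of the OR21 effect. No called gene reversed its direction in any alternative. The 7 genes above background in K562 became 12 with the 90th percentile of the negative controls and 1 with the 99th, and the 19 in KBM5 became 4 with the 99th and 6 when all 4 arrays were required. Over all genes, the 35 called for the combination became 20 after quantile normalization, 22 among the brighter genes and 0 with log2(intensity + 16) or without the line. The OR21 calls became 4 to 32 in K562 (in place of 16), 3 to 243 in KBM5 (in place of 96) and 2 to 43 for their difference (in place of 18). Without the line, the 1349 of IM in both lines became 0.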

Other observations

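Genes of the list that lie side by side in the genome did not always read alike. MX2 read 614 to 955 in KBM5 and MX1, its neighbour on chromosome 21, read 22.3 to 35.8 there, at background. SAMD9 and SAMD9L on chromosome 7 were both called for IM in KBM5. HERC6 and HERC5 on chromosome 4, and PARP9 and DTX3L on chromosome 3, were all higher in KBM5 than in K562, with HERC5 at background. Intensities of different probe sets are given side by side and set no order between genes.

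MPO, the granule peroxidase of myeloid progenitors, read 65.8 and 35.9 without OR21 and 11442 and 5282 with it in KBM5, at least 31.7-fold higher (limma adjusted p = 1.15e-06), on the same arrays on which OR21 gave no call among the 41 interferon-stimulated genes.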
